A study of Rattus norvegicus with 88 samples.

Results

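The genes described here are 5 of the 17252 genes measured in the infralimbic cortex of Heterogeneous Stock (HS) rats. They are Aif1 (ENSRNOG00000000853), Itgam (ENSRNOG00000019728), Cd74 (ENSRNOG00000018735), RT1-Da (ENSRNOG00000032844) and RT1-Ba (ENSRNOG00000000451). They were taken by identifier as markers of microglia and of major histocompatibility complex (MHC) class II antigen presentation, with earlier results of these data known. HS rats are outbred animals bred from a cross of inbred founders, and the infralimbic cortex is a medial prefrontal area of the brain. All rats were naive to behavioral testing and drugs, were housed in groups, and gave 1 library of polyadenylated RNA each from tissue dissected on both sides of the brain. After the authors removed 7 of 88 libraries, which were not analysed here, 81 rats remained: 40 females and 41 males in 5 rat batches of 16 (batch 2), 25 (batch 3), 24 (batch 4), 1 (batch 5) and 15 (batch 6) rats. No genotype, treatment or genetic modification separated the groups, so the comparisons available were sex and rat batch.

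Microglia are the resident macrophages of the brain. Aif1 encodes the actin-binding protein IBA1 and Itgam the integrin alpha M chain (CD11b), both commonly used to stain microglia. MHC class II molecules are dimers that present peptides to CD4 T cells. RT1-Da and RT1-Ba encode alpha chains of the rat DR-like and DQ-like molecules, and Cd74 encodes the invariant chain that occupies their groove until a peptide is loaded. In a resting brain, class II is found mainly on border macrophages and other immune cells and on few microglia, and its genes are switched on by the transactivator CIITA, which acts through a conserved promoter module of X and Y boxes.

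The promoters of the class II genes are shown because their genes moved together in the rats (below) and because the X and Y boxes are the module they are known to share. The sequences are from RefSeq, 5′ to 3′, with bases past the annotated gene start left out. Capitals mark the letters CTNGNAAC, an X box core chosen after these sequences were seen, and the Y box core CCAAT or its reverse complement ATTGG.
Cd74 promoter (GRCr8, chr18:56526956-56527070, strand +): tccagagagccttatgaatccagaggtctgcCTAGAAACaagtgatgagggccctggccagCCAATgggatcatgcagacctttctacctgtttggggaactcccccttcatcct
RT1-Da promoter (GRCr8, chr20:4515165-4515392, strand +): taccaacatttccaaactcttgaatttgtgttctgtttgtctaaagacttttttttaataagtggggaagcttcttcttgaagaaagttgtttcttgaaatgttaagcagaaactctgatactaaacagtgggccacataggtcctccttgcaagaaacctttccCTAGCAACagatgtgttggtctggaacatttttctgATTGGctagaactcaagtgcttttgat
RT1-Ba promoter (GRCr8, chr20:4576807-4577056, strand +): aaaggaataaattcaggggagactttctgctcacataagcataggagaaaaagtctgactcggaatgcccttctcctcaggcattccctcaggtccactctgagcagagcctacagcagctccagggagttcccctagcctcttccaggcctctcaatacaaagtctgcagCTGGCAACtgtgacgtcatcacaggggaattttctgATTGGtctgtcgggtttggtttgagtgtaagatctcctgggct

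All 3 promoters held the X box letters followed by the Y box letters. The X box letters were chosen after these sequences were seen, so their presence in all 3 was fixed in advance. The X box letters began at position -219 in Cd74, -85 in RT1-Da and -79 in RT1-Ba, with 22, 28 and 28 bases between both elements. Positions are counted from the start used for the 250-base promoters. That start leaves 135, 22 and 0 further bases after the sequences shown, so positions do not compare directly between the genes. Over 33469 promoters of the same 250 bases, 11385 held CCAAT or ATTGG, 11.4% held CTNGNAAC or its reverse complement, and 141 (0.421%) held the X box letters followed within 40 bases by a Y box core on either strand. Among 13 other genes of the class II list with a promoter, 2 held the combination: RT1-Db1, a class II beta chain gene, and RT1-DOb, a chain of the DO molecule that modulates peptide loading. Itgam held GAGGAA, the core recognised by the myeloid factor PU.1, at position -151 and its reverse complement TTCCTC at -39, and Cd74 held TTCCTC at -32. The letters at -39 and -32 lie past the annotated gene starts, in bases not shown. The core in either orientation was found in 23.3% of promoters. These matches describe letters, not bound sites. The shares over all promoters are background only and give no support for the X box letters in the 3 genes. RefSeq places Aif1, RT1-Da and RT1-Ba on chromosome 20, Cd74 on chromosome 18 and Itgam on chromosome 1.

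The deposited values are on a log2 scale, after upper-quartile adjustment of the read counts and addition of 1. Depth, read from the spacing of low values, was a mean of 17.9 ± 3.77 M reads per library (SD, n = 81) and ranged from 5.95 M in male 14 of rat batch 4, the next being 12.2 M, to 31.8 M. A floor of 3 adjusted counts was taken as the limit of detection. The columns of the table fell into 3 stretches of ascending names (column runs of 22, 16 and 43 libraries), which were treated as a possible technical batch whose meaning the sources do not give. Batches 4 and 6 and the batch 5 rat lay wholly in run 3, batch 2 lay in run 1 but for 1 library, and batch 3 was spread as 7, 15 and 3 rats over runs 1, 2 and 3. Adjusted counts of one gene are compared below between rats, never between genes.

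The microglial genes were present in every rat and kept within a narrow range. Aif1 was at 108 adjusted counts in the lowest rat, 201 at the median and 359 in the highest. Itgam was at 83, 184 and 291. On the log2 scale the means were 7.64 ± 0.29 for Aif1 and 7.51 ± 0.33 for Itgam (SD, n = 81), and the highest rat exceeded the lowest by 1.72 and 1.80. Their rat-to-rat spread was not far from that of other genes: after rat batch, column run and sex were removed, the residual SD was 0.27 for Aif1, higher than 72.5% of 964 genes of similar mean level, and 0.32 for Itgam, higher than 83.1% of 929.

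The class II genes spread over a wider range. Cd74 was at 40 adjusted counts in the lowest rat and 402 in the highest, with a median log2 level of 7.0. RT1-Da was at 5, 26 and 111 adjusted counts in the lowest, median and highest rats, and RT1-Ba at 0, 16 and 62. Means on the log2 scale were 6.91 ± 0.73, 4.69 ± 0.88 and 3.94 ± 1.09 (SD, n = 81). Cd74 and RT1-Da were above the floor in all rats, while RT1-Ba was at or below it in 5 rats, all female, of batches 3, 4 and 6. In bulk tissue, fewer cells that express a gene and less RNA per cell cannot be told apart. The residual SD of Cd74 was 0.65, higher than that of 97.1% of 805 genes of similar level, whose median was 0.26. RT1-Da (0.82) and RT1-Ba (1.00) exceeded 92.5% of 534 and 91.7% of 434 such genes. Counting error accounted for an estimated 4.34% of the residual variance of Cd74, 12.6% of that of RT1-Da and 13.7% of that of RT1-Ba, against 15.1% for Aif1 and 11.8% for Itgam. RT1 genes form a multigene family and RSEM divides shared reads by estimate, so levels of single RT1 genes are uncertain to that degree.

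**Figure D1:**
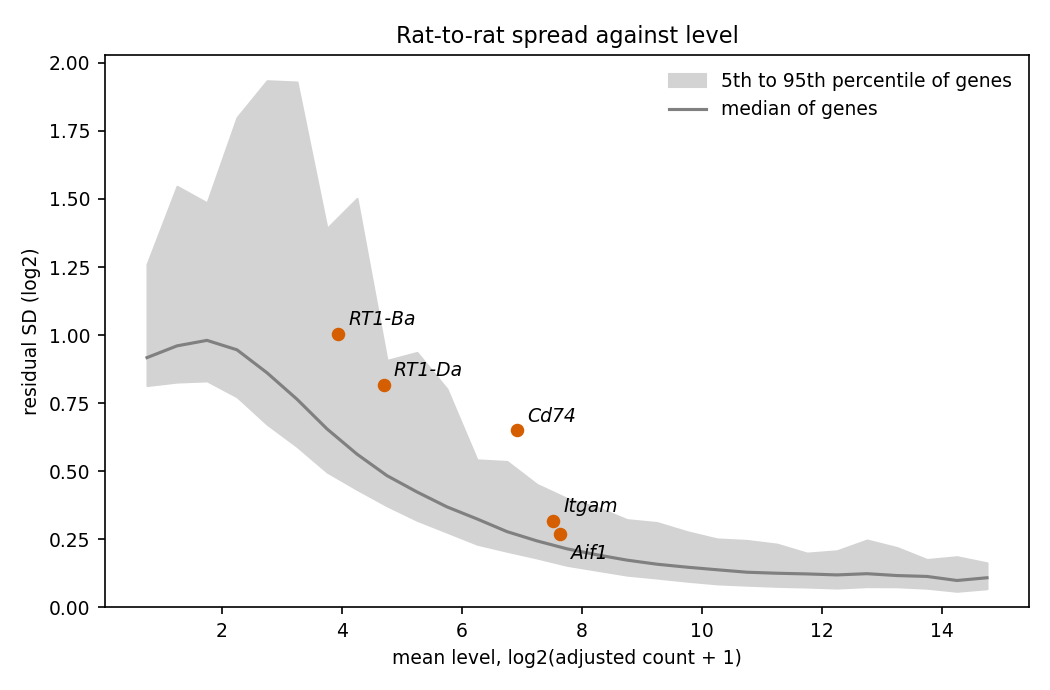
Residual SD over 81 rats (log2, after rat batch, column run and sex) against the mean level of each gene; the grey band holds the 5th to 95th percentile of genes in bins of level and the line their median. Cd74 lies above the band at a residual SD of 0.65. Aif1, Itgam, RT1-Da and RT1-Ba lie within it at 0.27, 0.32, 0.82 and 1.00.

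No separate classes of rats were detected in the levels of any of the 5 genes. Hartigan's dip test on residuals after rat batch and sex, run on genes whose mean log2 level was 5 or more, called 0 of the 3 members tested (Aif1, Itgam and Cd74, dip statistics 0.0299, 0.0282 and 0.0311, each with an adjusted p of 1.0 against 100000 uniform samples) and 8 of 13048 genes (0.0613%). RT1-Da and RT1-Ba lie under that level. Without the filter, 0 of 5 members and 397 of 17252 genes (2.3%) were called, and no member had an unadjusted p under 0.05. The largest gap between neighbouring rats left 1 rat alone in every member. It lay above the other 80 for Aif1 (0.28 on the log2 scale) and Cd74 (0.57), and below them for Itgam (0.42), RT1-Da (0.58) and RT1-Ba (1.00). The RT1-Ba gap was the step from 0 to 1 adjusted count, under the floor of 3, and cannot be set beside the others.

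**Figure D2:**
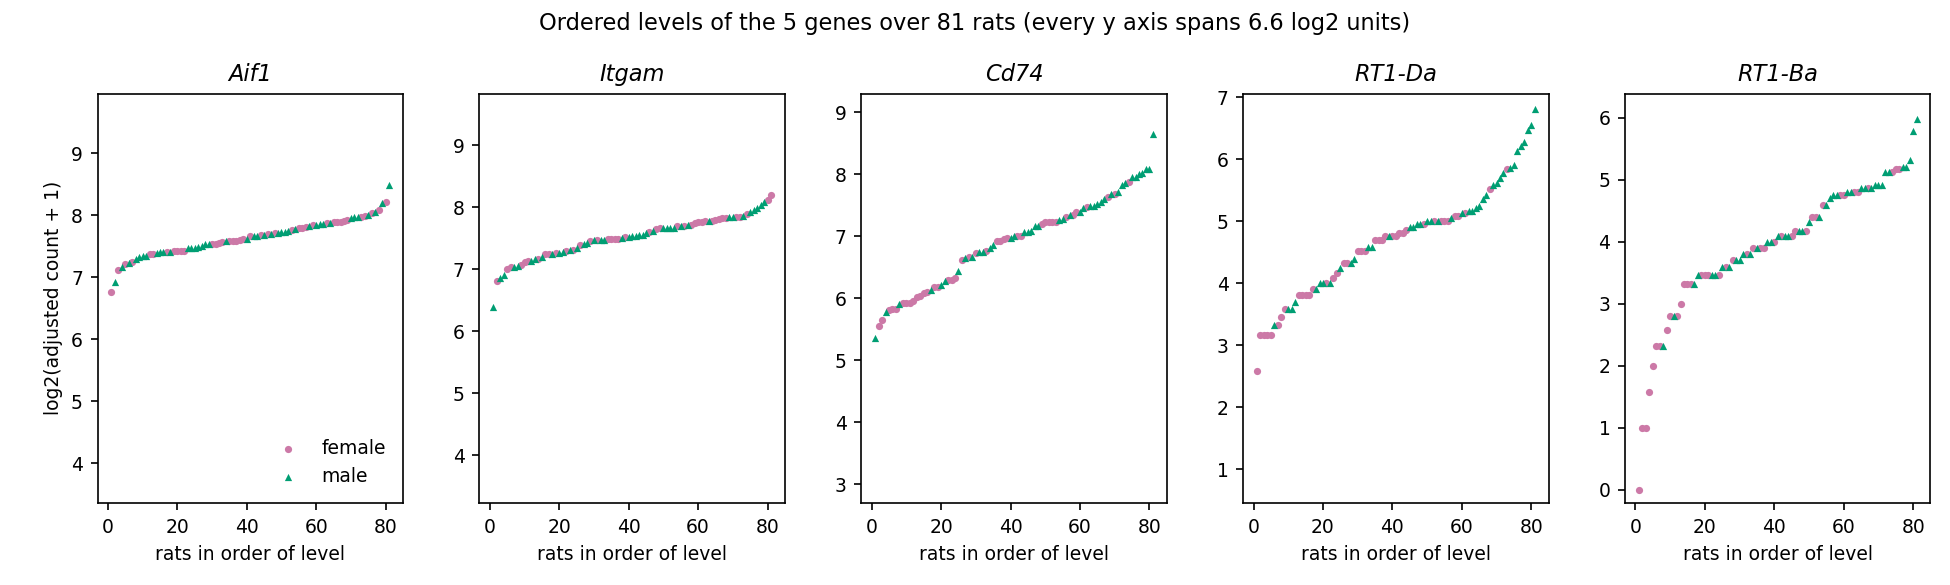
Log2 levels of the 5 genes with the 81 rats in order of each gene's own level, circles for females and triangles for males, on y axes of equal span. The curves of Aif1 and Itgam are shallow and those of Cd74, RT1-Da and RT1-Ba steep, with only 1 rat beyond the largest gap in each; the 5 lowest RT1-Ba values are all from females.

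Levels of the 3 class II genes followed each other from rat to rat, while the microglial genes followed neither the class II genes nor each other past the threshold. Correlations were computed over 81 rats on residuals after rat batch, column run and sex, for 10 pairs. Cd74 and RT1-Da had a Pearson's r of 0.76 and a Spearman's rho of 0.75, RT1-Da and RT1-Ba 0.65 and 0.70, and Cd74 and RT1-Ba 0.60 and 0.65. For each of these, the permutation p of 1e-05 is the smallest that 100000 permutations can give. In limma fits of all 17251 other genes on each member, these 3 of 10 pairs were past the threshold in both directions, with larger adjusted p-values of 1.80e-11, 4.22e-06 and 4.94e-05 (limma, Benjamini-Hochberg over all genes). Such a relation was called for 92 genes with Cd74 (0.533%), 86 with RT1-Da (0.499%) and 5 with RT1-Ba (0.029%). Without male 14, the library of lowest depth, these counts were 45, 24 and 4. Leaving out the 2 rats farthest from the median of a single gene of each pair left r between 0.61 and 0.74 for the 3 pairs. That gene was Cd74 in its pairs and RT1-Da in its pair with RT1-Ba, so no rat was left out for its RT1-Ba value. Leaving out male 14 left r between 0.58 and 0.75. Computed within each of 3 column runs, 4 rat batches and both sexes, r lay between 0.47 and 0.87 in all 27 values. It was between 0.55 and 0.66 in females and between 0.77 and 0.87 in males, a difference that was not tested.

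The other 7 pairs were not past the threshold. Aif1 and Itgam had an r of 0.16 and a rho of 0.17, with permutation p-values of 0.152 and 0.129. The 6 pairs of a microglial with a class II gene had an r between -0.06 and 0.07, those of Aif1 with RT1-Da and RT1-Ba, which share its chromosome, included. RT1-Da and RT1-Ba, with an r of 0.65, lie near each other on that chromosome, starting at bases 4515393 and 4577057. The part of position on the chromosome in any pair was not tested. Within batches the values varied: in batch 3 (25 rats) Aif1 had an r of 0.57 with Cd74, 0.50 with RT1-Da and 0.42 with RT1-Ba, whereas in batch 4 (24 rats) the values were -0.32, -0.12 and -0.33. None of these was past the threshold in the limma fit, and the difference between batches was not tested.

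**Figure D3:**
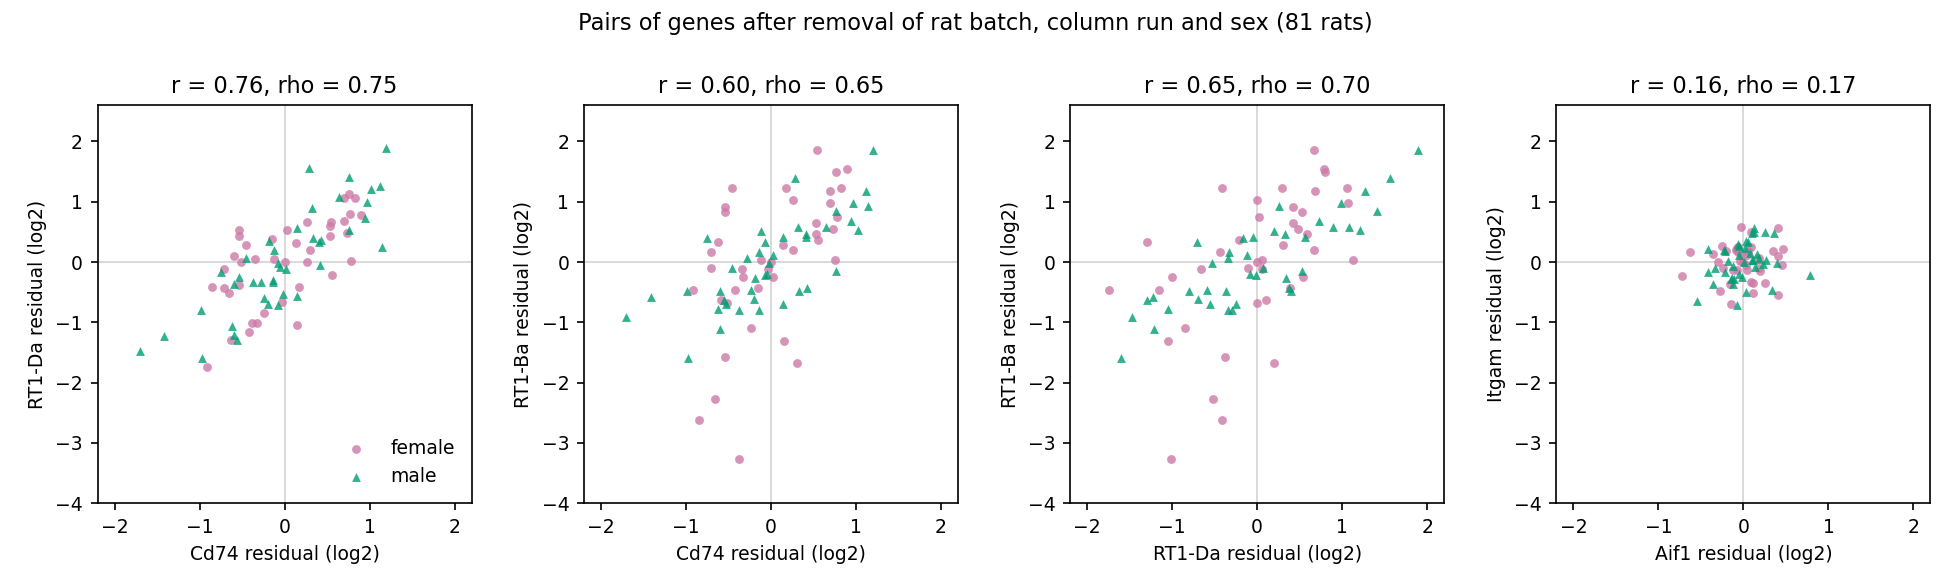
Residuals (log2, after rat batch, column run and sex) of 4 pairs of genes, 1 point per rat, circles for females and triangles for males, all panels on the same axes. The class II pairs slope upward with an r of 0.60 to 0.76, and the cloud of Aif1 and Itgam is round, with an r of 0.16.

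Rats picked from the ends of these same values illustrate the correlations and are no further support for them. Male 1 of batch 2 had the highest Cd74 (402 adjusted counts) and RT1-Ba (62) and the second highest RT1-Da (93), with Aif1 at 202 and Itgam at 157, ranks 42 and 23 of 81 from the lowest. Female 39 of batch 4 had 46 of Cd74, 5 of RT1-Da, the lowest of all rats, and 6 of RT1-Ba, with Aif1 at 171 and Itgam at 219. Other rats were less alike in the class II genes. Male 33 of batch 6 had the lowest Cd74 (40) but ranks 9 and 14 from the lowest for RT1-Da and RT1-Ba. Female 24 of batch 4 had 2 adjusted counts of RT1-Ba with Cd74 at rank 33. Of the 20 rats with the highest level of each class II gene, 11 were common to all 3 genes, and of the 20 lowest, 8 were. The highest RT1-Da, 111 adjusted counts, came from male 14, the library of lowest depth, in which 1 read was worth 2.99 adjusted counts.

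The 3 genes most like each class II gene were again class II genes. The next nearest gene was not far below them, with an r of 0.56 with Cd74, 0.59 with RT1-Da and 0.56 with RT1-Ba. By residual r, the 3 nearest genes to Cd74 were RT1-Da, RT1-Db1 (0.75) and RT1-Ba, the 3 nearest to RT1-Da were Cd74, RT1-Db1 (0.69) and RT1-Ba, and the 3 nearest to RT1-Ba were RT1-Da, Cd74 and RT1-Db1 (0.58), over 81 rats and 17251 genes. Aif1 was related to far more genes: 3851 (22.3%) were past the threshold, 1847 with a positive and 2004 with a negative slope, and the nearest was ENSRNOG00000019895 with an r of 0.71. This count was 0 with the first 20 expression components as covariates (limma). It was 4014 within rat batch 2 (16 rats), 37 within batch 3 (25 rats) and 0 within batches 4 and 6 (24 and 15 rats). Within column runs 1, 2 and 3 (22, 16 and 43 rats) it was 4557, 0 and 56. Within females it was 415 and within males 2952. The subsets had fewer rats than the full fit and were not separate. Of the 22 rats of column run 1, 15 were of batch 2, as were 12 of the 41 males. The part of rat number in these counts was not tested. Aif1 residuals had an r of 0.30 with log2 depth over 81 rats, Cd74 -0.24, RT1-Ba -0.22 and RT1-Da -0.13. Without male 14 these were 0.33, -0.13, -0.11 and 0.06. The part of depth in these relations was not tested. Itgam was related to 3 genes (0.0174%), and its nearest was ENSRNOG00000046834 with an r of 0.49.

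Other genes of the same pathways and cell types were taken from lists, of which only part could be matched to identifiers. Of 25 microglia markers 10 were matched, 8 of them beside Aif1 and Itgam. P2ry12 and P2ry13, purinergic receptors of homeostatic microglia, had an r between -0.04 and 0.06 with Aif1, Itgam, Cd74 and RT1-Da, and of 0.24 and 0.086 with RT1-Ba, which was not called. With Aif1, 1 of the 8 was called, C1qa, a subunit of complement C1q (r = 0.45, limma adjusted p = 0.00058). Over all genes, 22.3% were called with Aif1. The median r of the 8 was 0.13, beside -0.016 over all genes. With Itgam, 0 of the 8 were called. With Cd74 and with RT1-Da, 1 of the 8 was called, Olfml3, a secreted olfactomedin-like protein (r = 0.50 and 0.49, limma adjusted p = 0.0032 and 0.0069). Without male 14 the adjusted p of Olfml3 was 0.020 with Cd74 and 0.076 with RT1-Da (limma). The median r of the 8 was 0.086 with Cd74 and 0.19 with RT1-Da, beside 0.0044 with each over all genes. With RT1-Ba it was 0.22 beside 0.0053, and 0 were called.

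Of 19 class II pathway genes 7 were matched, 4 of them not members. RT1-Db1 was past the threshold with all 3 class II members and the other 3 with none of them: RT1-Db2, whose median value was 0, and Rfxap and Nfyb, subunits of the RFX and NF-Y factors that bind the X and Y boxes. Rfxap had an r of -0.10, -0.16 and -0.07 with Cd74, RT1-Da and RT1-Ba, and Nfyb -0.18, -0.16 and -0.20. The rank correlation of Rfxap had the opposite sign, with a rho of 0.14, 0.14 and 0.15, and its lowest rat was at a log2 level of 0, beside a median of 9.07. Nfyb was called with Aif1 (r = 0.35, limma adjusted p = 0.015), as were 22.3% of all genes. Of 22 class I and interferon genes 4 were matched. None was called with a class II member, the highest r being 0.36 for Psmb9, an immunoproteasome subunit, with RT1-Da, and B2m, the light chain of class I molecules, was called with Aif1 (r = 0.47, limma adjusted p = 0.00029). Of 10 complement genes 3 were matched, and Serping1, the inhibitor of C1, was called with Cd74 and RT1-Da (r = 0.50 for both, limma adjusted p = 0.0032 and 0.0040), and without male 14 its adjusted p was 0.020 and 0.0501 (limma). C1qa and C1qc had an r of 0.25 to 0.34 with the class II genes and were not called.

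**Figure D4:**
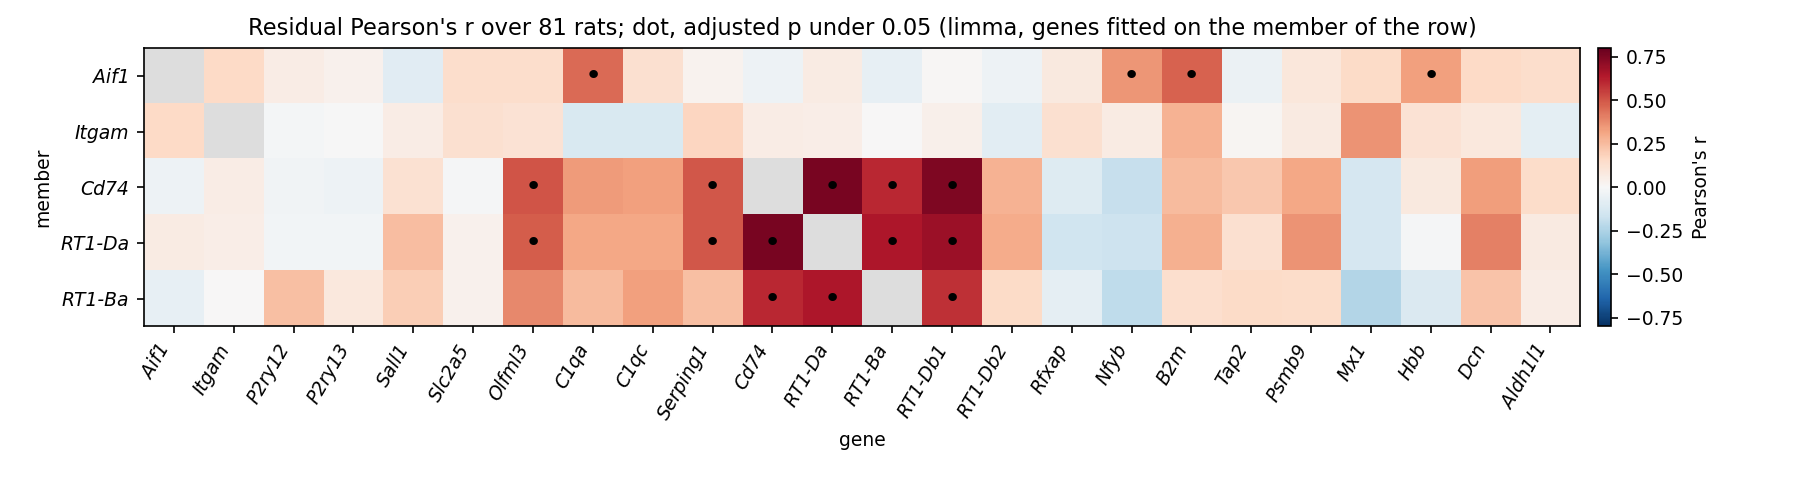
Residual Pearson's r over 81 rats of each member (rows) with matched list genes and the other members (columns), red positive and blue negative, with a dot where limma called the gene at an adjusted p under 0.05; a member's own cell is grey. The dots of Cd74, RT1-Da and RT1-Ba fall on one another and on RT1-Db1, and for Cd74 and RT1-Da also on Olfml3 and Serping1. Those of Aif1 fall on C1qa, Nfyb, B2m and Hbb, and 22.3% of all genes were called with Aif1.

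Markers of other cells that could be matched were few: 1 of 4 for red blood cells (Hbb), 1 of 6 for choroid plexus and meninges (Dcn), 1 of 4 for astrocytes (Aldh1l1), and 0 of the border macrophage, T and B cell, endothelial, oligodendrocyte and neuronal lists. Hbb, a hemoglobin chain, was called with Aif1 (r = 0.33, limma adjusted p = 0.020), as were 22.3% of all genes. Its level ranged from 7.08 to 10.90 on the log2 scale. Dcn, a proteoglycan of meningeal fibroblasts, ranged from 7.11 to 9.77 and had an r of 0.33 with Cd74, 0.40 with RT1-Da and 0.23 with RT1-Ba (limma adjusted p = 0.050 for RT1-Da, just short of the threshold). With Dcn as a further covariate the 3 class II pairs kept an r between 0.57 and 0.73, while the genes called fell from 92 to 6 with Cd74, from 86 to 4 with RT1-Da and from 5 to 4 with RT1-Ba (limma). Olfml3 and Serping1 were then not called with either gene, with adjusted p-values of 0.126 and 0.178 for Cd74 and of 0.356 and 0.444 for RT1-Da (limma), and RT1-Db1 was still called with all 3. The part of other cells of the meninges and of blood in these relations was not tested.

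The first comparison was between the sexes. In females, Cd74 was at 46 adjusted counts in the lowest rat, 103 at the median and 233 in the highest, and in males at 40, 152 and 402. RT1-Da was at 5, 22 and 56 in females and at 9, 31 and 111 in males. RT1-Ba was at 0, 12 and 35 in females and at 4, 19 and 62 in males. The sexes overlapped in all 3 genes, with the highest rat of each gene a male. With rat batch as a covariate, 0 of 5 members were past an adjusted p of 0.05 (limma, two-sided, Benjamini-Hochberg over 17252 genes), beside 34 genes (0.197%) in the whole table. The male minus female log2 difference was 0.42 for Cd74 (standard error 0.14, limma adjusted p = 0.349), 0.61 for RT1-Da (0.18, adjusted p = 0.254) and 0.67 for RT1-Ba (0.22, adjusted p = 0.313). All 3 had an unadjusted p under 0.05, as did 1339 genes (7.76%). Aif1 and Itgam differed by -0.03 (0.06) and -0.06 (0.08). Males had the higher mean of each class II gene within each of the 4 batches with both sexes: for Cd74 the differences were 0.11, 0.22, 0.55 and 0.81 in batches 2, 3, 4 and 6, for RT1-Da 0.02, 0.66, 0.63 and 0.96, and for RT1-Ba 0.38, 0.54, 1.05 and 0.53. The 3 genes were measured in the same rats and followed each other, so they are not separate evidence. Batch 2 had only 4 females. The interaction of sex with batch was past the threshold for 0 of 5 members and 0 genes (0.0%), and 531 genes (3.08%), no member among them, had an unadjusted p under 0.05 (limma). Dcn was 0.16 higher in males (standard error 0.11, limma adjusted p = 0.774), and with Dcn as a covariate the 3 differences were 0.35, 0.50 and 0.60.

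The second comparison was between rat batches 2, 3, 4 and 6 (80 rats, sex as a covariate). The log2 level of Cd74 was 6.97, 7.39 and 8.65 in the lowest, median and highest rats of batch 2, 5.78, 7.08 and 7.96 in batch 3, 5.55, 6.73 and 8.08 in batch 4, and 5.36, 6.61 and 8.08 in batch 6. No rat of batch 2 was under 6.97, and each of the other batches had rats on both sides of that value. These levels are not adjusted for sex. Batch 2 held 12 males and 4 females, batch 3 11 and 14, batch 4 11 and 13, and batch 6 7 and 8. Aif1 had median log2 levels of 7.78, 7.75, 7.42 and 7.67 in batches 2, 3, 4 and 6, with ranges of 7.12 to 8.49, 7.21 to 8.21, 6.77 to 7.90 and 7.17 to 8.08. Its batches all overlapped. In the F test over batches, 2 of 5 members were past the threshold, Aif1 (adjusted p = 0.0069) and Cd74 (adjusted p = 0.036), against 57.6% of all genes (limma). Batch 4 was lower than batch 2 in Aif1 by a log2 difference of -0.27 (standard error 0.09), in Cd74 by -0.66 (0.21) and in RT1-Ba by -0.88 (0.32), with adjusted p-values of 0.014, 0.0077 and 0.024, a contrast that called 37.9% of genes (limma). Batch 4 was also lower than batch 3 in Aif1, by -0.27 (0.08, adjusted p = 0.0026, 47.1% of genes called; limma). The other 4 contrasts called no member, and 0.962% (batches 3 and 2), 40.8% (6 and 2), 49.0% (6 and 3) and 3.53% (6 and 4) of genes. RT1-Db1 was likewise lower in batch 4 than in batch 2, by -0.98 (0.26, limma adjusted p = 0.0016). In the same contrast the microglial P2ry12 was higher by 0.46 (0.11, limma adjusted p = 0.00060). Lower in batch 4 were C1qa by -0.25, C1qc by -0.21, Serping1 by -0.48, Psmb9 by -0.34 and the astrocyte marker Aldh1l1 by -0.21, with adjusted p-values of 0.0038, 0.016, 0.0064, 0.046 and 0.0050 (limma). These list genes are named because they were called, in a contrast that called 37.9% of all genes. The microglia markers Olfml3, P2ry13, Sall1 and Slc2a5 were not called, with differences of -0.18, 0.19, 0.03 and -0.14. The part of list genes in the batch differences of the members was not tested.

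**Figure D5:**
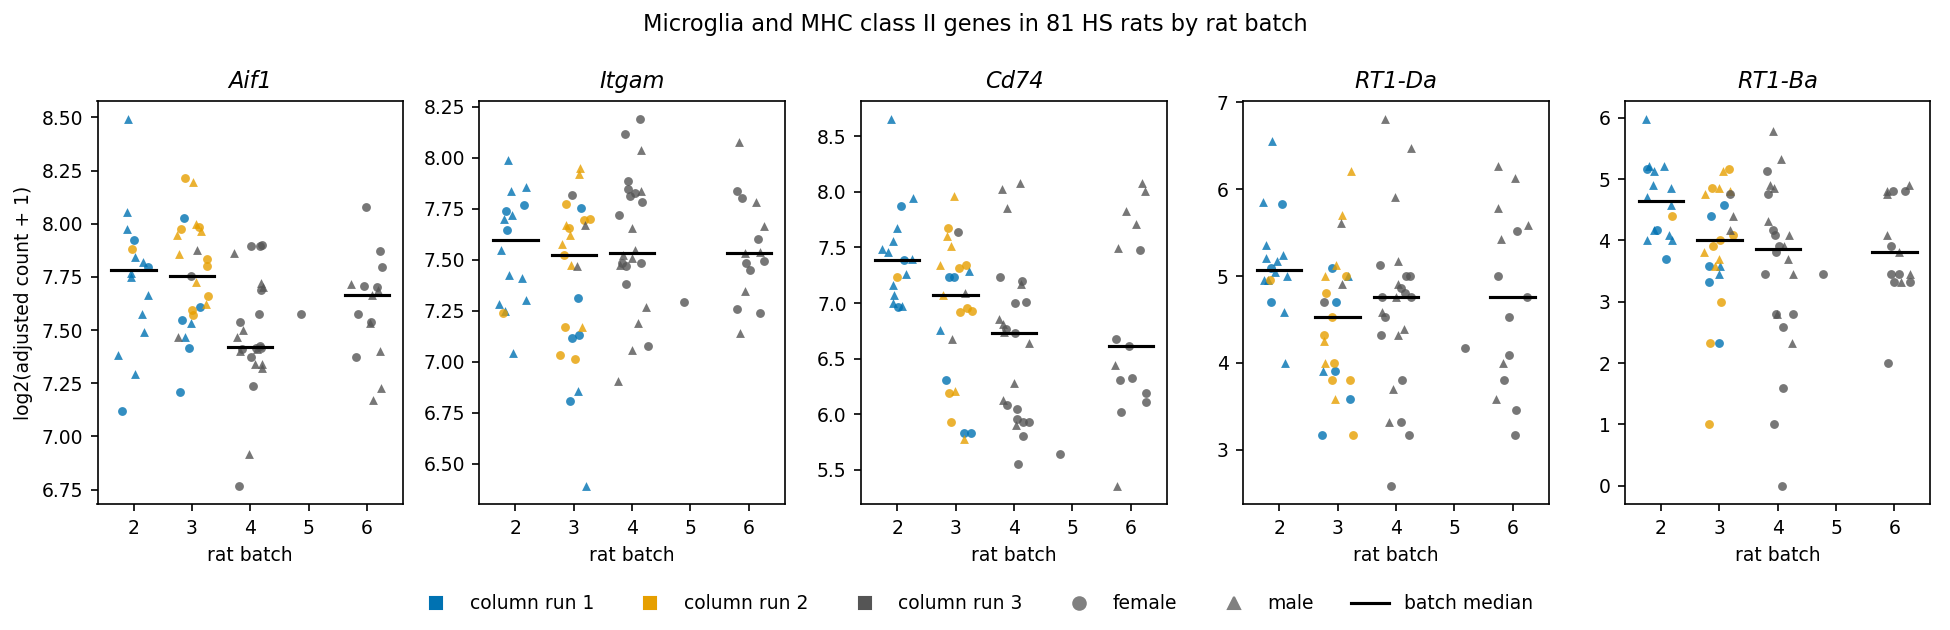
Log2 levels of the 5 genes in every rat by rat batch, coloured by column run, circles for females and triangles for males, with the batch median as a line (batch 5 is 1 rat). Cd74 in batch 2 stays at or above 6.97 while batches 3, 4 and 6 reach down to 5.78 or less, and run 1 rats of batch 3 make up much of its low end for Itgam. Levels are not adjusted for sex.

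Batch and column run were largely confounded. With column run as a covariate, the batch test called 0 of 5 members and 476 genes (2.76%; limma). Column run itself, tested given rat batch and sex, called 0 of 5 members and 2892 genes (16.8%), with Itgam nearest the threshold (limma adjusted p = 0.064). Within batch 3, the only batch spread over all 3 runs, Itgam had a log2 level of 6.39, 7.12 and 7.75 in the lowest, median and highest of 7 rats of run 1 and of 7.01, 7.62 and 7.95 in 15 rats of run 2, and the 3 rats of run 3 were at 7.47, 7.67 and 7.82. Its means were 7.05 ± 0.43, 7.53 ± 0.30 and 7.65 ± 0.18 (SD), run 1 overlapping with both others, and Itgam was past the threshold there (adjusted p = 0.038) as were 16.9% of genes (limma). Cd74, RT1-Da and RT1-Ba had adjusted p-values between 0.653 and 0.798 for column run given batch (limma).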

How the data were processed

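RNA-Seq libraries of infralimbic cortex, 1 per rat, were grouped by the sex and rat batch in the labels. The authors ran cutadapt on the reads, used RSEM to assign them to Ensembl transcripts of the rat (Rnor_6.0 is named in the submitters' processing notes), applied an upper-quartile adjustment to the estimated counts with DESeq2, filtered genes and libraries, and deposited log2 values of the adjusted count plus 1; versions are not given in the sources used here. Every value turned back from the log2 scale and under 100 was whole within 0.01 (100.0%), so depth was estimated from which whole numbers each library takes. Reads shared between similar genes are split by estimate, which can blur RT1 genes, and the pseudocount of 1 understates changes of low genes.

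The values are no counts, so linear models were fitted to the whole table with limma 3.58.1 (R 4.3.3; lmFit, eBayes with an intensity trend, Benjamini-Hochberg over all genes, threshold 0.05). Covariates were rat batch in the sex fit, sex in the batch fit, and both in the column run fit, and the batch 5 rat was left out of the last 2. Column runs were found from where the order of column names starts over; no column was left without a library. Correlations, spreads and dip statistics used numpy 2.4.6 and 100000 permutations or uniform samples, on residuals. Promoters came from RefSeq (GRCr8), with a match for 4 of 5 members. The study's tables pair 3335 identifiers with names, 1 member (Itgam) among them; the other members' names were given with their identifiers, and list genes were matched through those tables only. Those tables list genes with an expression or splicing locus, with tissue-specific expression or with a locus shared with a trait. Matched list genes are therefore not a random part of a list. Named genes are the members, the 3 genes most like each member where a name is paired with the identifier (otherwise 2 identifiers in all), and the matched list genes, of which 1 is not reported here. The members and lists were chosen with earlier results of these data known. Libraries are separate rats. Alternatives were a filter on genes with a mean log2 level under 5, no trend, a pseudocount of 10, quantile normalization, other covariates, and subsets of rats; those within rat batches, within sexes and with Dcn as a covariate were added after seeing the data. The fits, the dip and the depth estimate were tested on simulated data.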

Additional observations from a re-analysis of the deposited data

Results flagged for a closer look

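In groups of 4 to 10 rats (both sexes of batch 6, females of batch 2, and the batch 3 rats of column run 1), 2 of 20 groups, counted over the 5 genes, had 1 rat far from the others by Dixon's criterion. Chance alone gives this in about 1 in 20 groups. Aif1 was at 7.12 on the log2 scale in female 38, the lowest of the 4 females of batch 2, the next being at 7.79. Cd74 was at 7.48 in female 27, the highest of the 8 females of batch 6, the next being at 6.67.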

How the results depend on the processing

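No paired analysis was possible because replicate numbers only name single rats. The count of members past the threshold for sex, for the interaction and for the dip test was 0 under every alternative run, of which the filter on low levels left 3 members to test. For rat batch it was 2, and 0 with column run as a covariate. For column run it was 0, and 1 without rat batch as a covariate and 1 within batch 3. The 3 pairs past the threshold became 1 with the first 20 expression components as covariates and 0 within column run 1, column run 2, each rat batch and females, and 2 within column run 3 (Cd74 and RT1-Ba lost), and r of the class II pairs was still positive in each of these fits. The fits within subsets had fewer rats. Without the library of lowest depth, RT1-Ba joined the members called for rat batch (limma adjusted p = 0.0498), as it did with no covariate (0.030).

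The residual SD was 0.19 for Aif1 and 0.80 for RT1-Ba as a scaled median absolute deviation, and 0.60 for RT1-Da and 0.55 for RT1-Ba with a pseudocount of 10. Signs also changed among sex differences and in the pair of Aif1 and Itgam, none of them past the threshold: the sex difference of Aif1 was 0.020 without rat batch 6, that of Itgam 0.022 without rat batch 4, and r of Aif1 and Itgam was -0.15 within column run 1 and -0.29 within rat batch 2. The 6 pairs of a microglial with a class II gene took r from -0.33 to 0.64 over the alternatives and changed sign in 29 of 102 values. Low values are least precise in male 14, the library of lowest depth (2.99 adjusted counts per read).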
